A study of Brassica napus with 112 samples.

Results

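FATTY ACID DESATURASE 2 (FAD2) is the oleate desaturase of the endoplasmic reticulum, and rapeseed carries a copy of it on chromosome A05 (BnaA05g26900D) and another on chromosome C05 (BnaC05g40970D). Both copies were taken by their identifiers, and they make up 2 of the 101040 genes in the table of values. The gene name comes from the description of the loci used for this work, since the table lists identifiers without gene names, and neither identifier was matched in the annotation table used here. RNA was sequenced from field-grown Brassica napus of the spring hybrids Lumen and Solar.

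Each library came from 1 tissue (seeds or siliques, 56 libraries each), 1 hybrid, 1 treatment, 1 sampling time (14 or 7 days after flowering, DAF) and 1 season (season 2, sown in 2020, or season 1, sown in 2019). Heated plots were enclosed in chambers of polyethylene film and warmed by about 5 °C above ambient from the start of flowering, and control plots were left as they were, so warming and the light held back by the film cannot be told apart. Of the 16 conditions per tissue, the 8 of season 2 had 4 libraries each and the 8 of season 1 had 3 each. In season 1 heat was laid out on main plots with the hybrids as sub-plots, and season 2 used randomized blocks. The design text gives 3 replicates in both seasons while the methods give 4 independent plots in season 2, so the number of plots behind the fourth library is not settled. Lumen and Solar were sampled on different calendar days, so hybrid and sampling day cannot be told apart. The sources used here do not say whether seeds were taken out of the silique samples, and the tissue labels were not checked against marker genes because no identifier in the table was paired with those names.

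FAD2 adds a double bond to oleic acid bound in membrane lipids, mainly phosphatidylcholine, and makes linoleic acid, which FAD3 can desaturate further to linolenic acid. In oilseeds the enzyme therefore sets much of the balance between oleic acid and polyunsaturated fatty acids in the oil, and inactive FAD2 alleles are the base of high-oleic rapeseed. Brassica napus is an allotetraploid with an A and a C subgenome, so that most of its genes are present as pairs of homoeologues. Only the copies named above were examined, and other loci of FAD2 were not looked for.

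The values were whole numbers normalized by the authors, of the size of TPM values (transcript abundances scaled to a fixed total), and are called normalized values here. They summed to between 890194 and 1658548 per library, with a median of 983956.5. The table holds no reads per gene, so the spread between libraries served as the error. The copies of a homoeologous pair are alike in sequence and pseudoalignment can divide shared reads between them, so the split between the A05 and the C05 copy is less certain than their sum. The study's methods name TPM, a measure per transcript length, as the output of kallisto, but the step from it to the deposited whole numbers is not given in the sources used here. The scaling by length bears on a difference between copies within 1 library and not on a comparison of that difference between groups. Whether shared reads were divided alike in both hybrids, or were also shared with other loci of the gene, was not tested. Of the seed libraries, 2 stood apart. In Solar control seeds at 14 DAF of season 1, replicate 1, the 10 leading genes took 33.5% of the sum, against at most 6.75% in any other seed library. Lumen heat seeds at 7 DAF of season 2, replicate 4, had 66990 genes at 0, against at most 49537 in any other seed library. The copies had 260 (A05) and 238 (C05) in that Solar library and 218 (A05) and 72 (C05) in that Lumen library, and the value of 260 was the highest of the A05 copy in Solar seeds at 14 DAF while the other 3 values lay within the range of the other libraries of the same hybrid and time. Results that change without these libraries are named beside the result.

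Both copies were strongly expressed in both tissues. The A05 copy averaged 261 ± 96.3 in seeds and 151 ± 46.7 in siliques, and the C05 copy averaged 140.25 ± 69.5 in seeds and 96.25 ± 38.9 in siliques (SD, n = 56 libraries each). Among the 53350 genes tested in seeds, the mean of the A05 copy stood at the 99.4th percentile and that of the C05 copy at the 98.4th, and among the 54752 genes tested in siliques they stood at the 98.4th and 97.0th percentiles. No library was without signal, with lowest values of 88 for the A05 copy and 33 for the C05 copy. Replicate libraries of 1 condition varied with a residual SD of 0.16 (A05) and 0.25 (C05) on the log2 scale in seeds, and of 0.19 (A05) and 0.28 (C05) in siliques. The median residual SD of all genes with a mean of at least 20 was 0.23 in seeds and 0.30 in siliques. The A05 copy had less scatter than most of these genes, at the 17.0th and 13.4th percentiles. Most of them had lower means than this copy, and genes of a like level were not compared on their own.

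**Figure D1:**
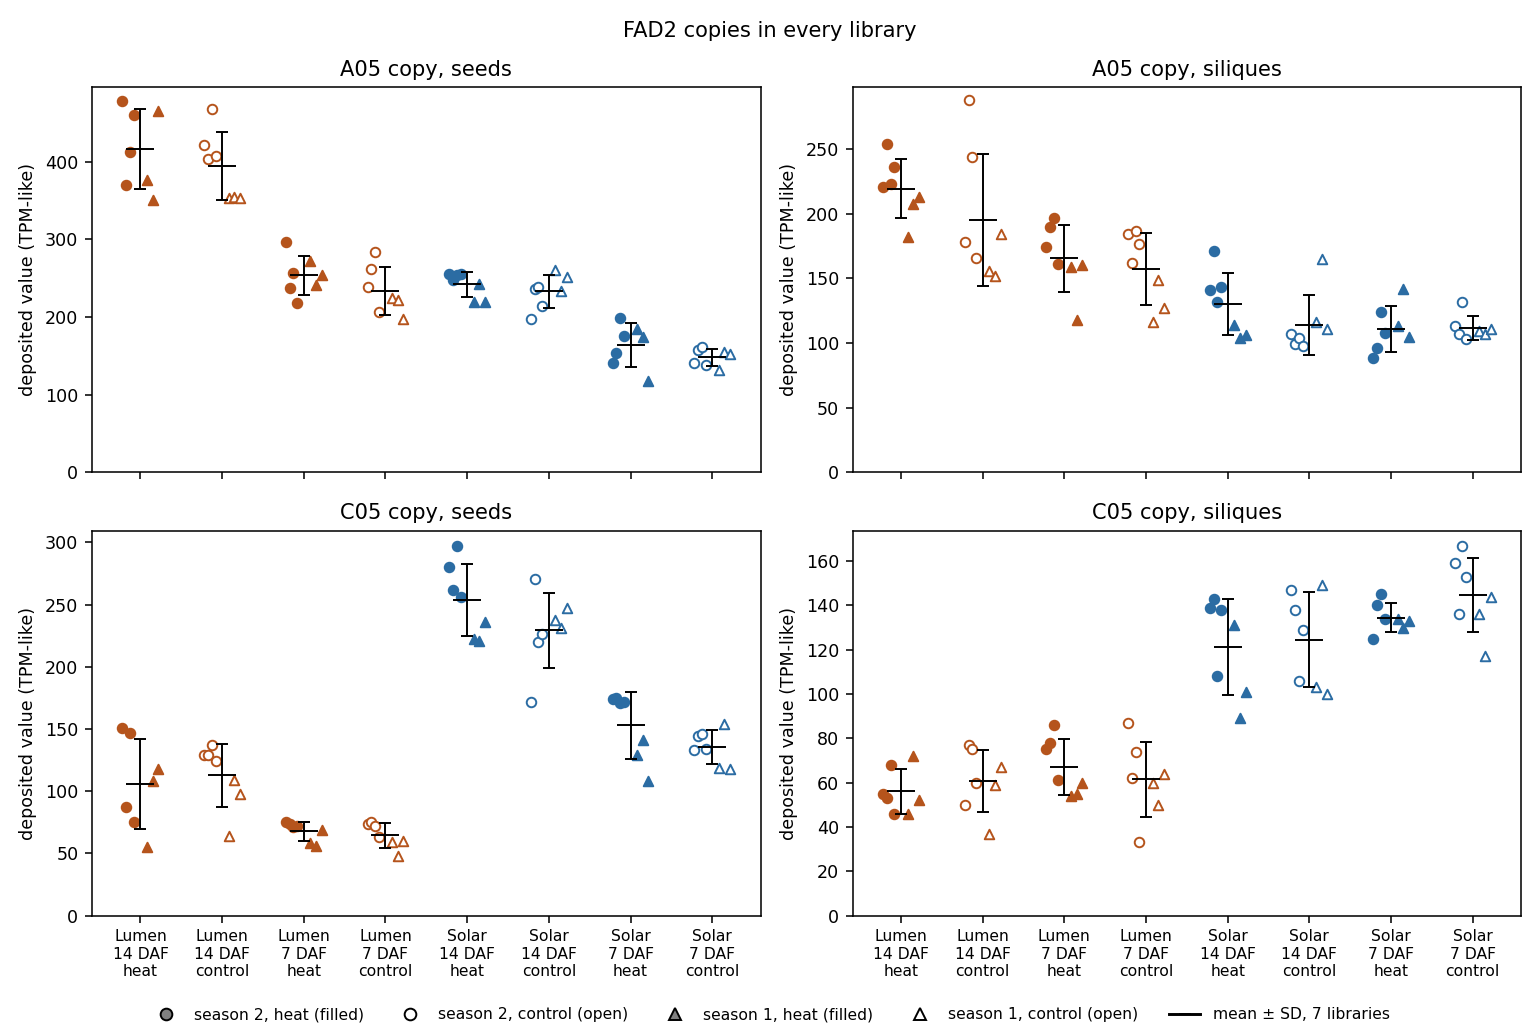
Normalized values (vertical axis, starting at 0) of the A05 copy (top) and the C05 copy (bottom) in seeds (left) and siliques (right). Each point is 1 library, with filled points for heat, open points for control, circles for season 2, triangles for season 1, orange for Lumen and blue for Solar, and the black bars give the mean ± SD of 7 libraries. The A05 copy lies higher in Lumen than in Solar, the C05 copy lies lower in Lumen than in Solar, and both copies in seeds lie higher at 14 DAF than at 7 DAF.

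Ordered by mean, the A05 copy was highest in Lumen seeds at 14 DAF, with 405 ± 47.3 (SD, n = 14 libraries as in every group of this order) and a lowest, median and highest library of 351, 405.5 and 478. Next came Lumen seeds at 7 DAF with 243.5 ± 29.1 (197, 240 and 296) and Solar seeds at 14 DAF with 237 ± 18.7 (198, 240.5 and 260). Lumen siliques at 14 DAF followed with 207.5 ± 40.0 (152, 210.5 and 288). By these means Lumen siliques at 14 DAF stood below the seeds of both hybrids at that time and above Solar seeds at 7 DAF. The places of seeds against siliques depend on the scaling between tissues. Median-ratio rescaling, described below, lowered the seed minus silique difference of this copy from 0.76 to 0.47 (log2). The order was not computed again on rescaled values. Lumen siliques at 7 DAF, at 161.5 ± 26.2 (116, 161.5 and 197), were close to Solar seeds at 7 DAF, at 156 ± 22.1 (117, 154 and 199). The lowest means were those of Solar siliques, at 122 ± 24.2 at 14 DAF (98, 112.5 and 171) and 111 ± 13.8 at 7 DAF (88, 108.5 and 142). Lumen seeds at 14 DAF were the only group whose range did not overlap that of its neighbour in the order. The gap to the next group exceeded the larger SD of the pair there, by 3.42 times, between Lumen siliques at 14 and at 7 DAF, by 1.15 times, and between Solar seeds at 7 DAF and Solar siliques at 14 DAF, by 1.39 times. The other 4 gaps were smaller than the larger SD of the 2 groups they separate.

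The C05 copy had another order. Its highest mean was in Solar seeds at 14 DAF, with 241 ± 31.1 and a lowest, median and highest library of 172, 237 and 297. Solar seeds at 7 DAF had 144 ± 22.4 (108, 142.5 and 175), Solar siliques at 7 DAF had 139.5 ± 13.3 (117, 136 and 167), and Solar siliques at 14 DAF had 123 ± 20.6 (89, 130 and 149). The means of all 4 Lumen groups lay below these. Lumen seeds had 109 ± 30.1 at 14 DAF (55, 113.5 and 151) and 66.1 ± 8.67 at 7 DAF (48, 70 and 75). Lumen siliques had 58.4 ± 12.1 at 14 DAF (37, 57 and 77) and 64.2 ± 14.7 at 7 DAF (33, 61.5 and 87). Only the gap below Solar seeds at 14 DAF (3.13 times the larger SD) and the gap below Lumen seeds at 14 DAF (1.43 times) exceeded the spread of the groups beside them, and every pair of neighbours in the order overlapped. The places of seeds against siliques again rest on values without rescaling. At 7 DAF the direction of the tissue difference of this copy depended on the scaling, as given below.

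The comparison of hybrids asks whether Lumen and Solar, which the study chose for their similar development and set against each other under heat, express the copies alike. They did not, and the copies went opposite ways. In seeds the A05 copy was 1.62-fold higher in Lumen than in Solar (log2 difference 0.70, SE 0.04, 95% interval 0.61 to 0.79), with 324 ± 91.0 in Lumen and 197 ± 46.2 in Solar (SD, n = 28 libraries each). The C05 copy was 2.24-fold lower in Lumen seeds (log2 difference -1.16, SE 0.07, 95% interval -1.30 to -1.03), with 87.75 ± 30.9 in Lumen and 193 ± 56.2 in Solar. Both passed the test in limma (q-values 4.85e-18 for A05 and 1.22e-19 for C05, threshold 0.01). Differences between hybrids were common, since 36.9% of the genes tested in seeds passed this test, 16.9% with higher and 20.0% with lower values in Lumen. By the size of the hybrid difference the A05 copy stood at the 83.9th and the C05 copy at the 94.0th percentile of the seed genes with a mean of at least 20.

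Within each of the 8 combinations of treatment, time and season in seeds, all Lumen libraries lay above all Solar libraries for the A05 copy and below them for the C05 copy. Of all genes tested in seeds, 1.74% had Lumen above Solar in all 8 combinations and 2.34% had Lumen below Solar. At 14 DAF in heated plots of season 2, the A05 copy had 478, 370, 413 and 460 in Lumen seeds, against 256, 248, 254 and 255 in Solar seeds. The C05 copy in the same libraries had 151, 87, 147 and 75 in Lumen seeds, against 280, 262, 297 and 256 in Solar seeds. The 4 Solar libraries of this condition were close to each other in the A05 copy, whereas the Lumen libraries spread widely in both.

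In control plots at the same time and season, the A05 copy had 421, 403, 468 and 408 in Lumen seeds, against 198, 236, 238 and 214 in Solar seeds. The C05 copy there had 129, 129, 137 and 124 in Lumen seeds, against 172, 271, 220 and 226 in Solar seeds. Here the highest Lumen library of the C05 copy (137) was still below the lowest Solar library (172). Season 1 had the same separation at 14 DAF. Heated Lumen seeds had 377, 351 and 465 for the A05 copy, against 219, 243 and 219 in heated Solar seeds, and control Lumen seeds had 353, 355 and 353, against 260, 233 and 251 in control Solar seeds. For the C05 copy heated Lumen seeds of season 1 had 55, 108 and 118, against 222, 221 and 236 in heated Solar seeds, and control Lumen seeds had 64, 109 and 98, against 238, 231 and 247 in control Solar seeds. Replicate 1 was the lowest of these Lumen libraries in the C05 copy under both treatments (55 and 64), while its A05 values (377 and 353) were within the range of the other Lumen libraries.

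At 7 DAF the levels were lower and the hybrids again did not overlap. In season 2 the A05 copy had 296, 237, 257 and 218 in heated Lumen seeds, against 141, 153, 199 and 176 in heated Solar seeds. Control plots of that season had 239, 262, 284 and 206 in Lumen seeds, against 141, 157, 161 and 138 in Solar seeds. The nearest approach of the hybrids in these conditions was 218 in Lumen and 199 in Solar, both in heated plots. Season 1 gave 272, 241 and 254 in heated Lumen seeds, against 185, 174 and 117 in heated Solar seeds, and 224, 222 and 197 in control Lumen seeds, against 132, 155 and 152 in control Solar seeds.

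The C05 copy at 7 DAF was tightly grouped in Lumen. It had 75, 74, 71 and 72 in heated Lumen seeds of season 2, against 174, 175, 171 and 172 in heated Solar seeds, so that the replicates of both groups differed by no more than a few units. Control plots of season 2 had 74, 75, 72 and 63 in Lumen seeds, against 133, 144, 146 and 134 in Solar seeds. In season 1 the copy had 58, 56 and 69 in heated Lumen seeds, against 129, 141 and 108 in heated Solar seeds, and 59, 48 and 60 in control Lumen seeds, against 119, 154 and 118 in control Solar seeds. Tested within each time and season, the hybrid difference in seeds passed in 4 of 4 cases for each copy, between 0.63 and 0.85 (log2) for A05 and between -1.39 and -1.03 for C05. In these cases 19.8% and 20.6% of seed genes passed at 14 DAF in seasons 2 and 1, in either direction, and 21.5% and 20.4% passed at 7 DAF.

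Siliques had the same pair of directions. The A05 copy was 1.53-fold higher in Lumen (log2 difference 0.62, SE 0.05, 95% interval 0.51 to 0.72, q = 1.07e-13 in limma), with 184.5 ± 40.6 in Lumen and 117 ± 20.1 in Solar (SD, n = 28 libraries each). The C05 copy was 2.16-fold lower in Lumen (log2 difference -1.11, SE 0.07, 95% interval -1.26 to -0.96, q = 3.90e-17), with 61.3 ± 13.5 in Lumen and 131 ± 19.0 in Solar. In siliques 36.8% of the genes tested passed, 17.9% with higher and 18.9% with lower values in Lumen. The C05 copy had all Lumen libraries below all Solar libraries in 8 of 8 combinations, as did 1.42% of genes, and the A05 copy had all Lumen libraries above in 6 of 8, as did 3.42% of genes in 6 or more. No difference of the hybrid effect between tissues passed the test for either copy (difference of log2 effects 0.08, 95% interval -0.05 to 0.22, q = 0.48 for A05, and -0.05, interval -0.25 to 0.15, q = 0.80 for C05).

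The overlaps in the A05 copy were both in season 1. Heated siliques at 7 DAF had 159, 118 and 160 in Lumen, against 113, 142 and 105 in Solar, and control siliques at 14 DAF had 156, 152 and 184 in Lumen, against 116, 165 and 111 in Solar. In each case 1 Solar library reached into the Lumen range. The Solar control library with 165, replicate 2, had the highest sum of the silique libraries (1245569, median 991972). Its 10 leading genes took 10.7% of that sum, the largest share in siliques (median 3.58%). No fit left out this library on its own. The remaining conditions of season 1 were apart, with 116, 149 and 127 in Lumen control siliques at 7 DAF, against 109, 107 and 111 in Solar, and with 182, 208 and 213 in heated Lumen siliques at 14 DAF, against 114, 104 and 106 in Solar. Within 7 DAF of season 1 the hybrid difference of the A05 copy was 0.26 (log2, SE 0.11) and did not pass (q = 0.070 in limma), while it passed in the other 3 of 4 cases, with up to 0.87 at 14 DAF in season 2. Of all silique genes 17.3% and 20.2% passed at 14 DAF in seasons 2 and 1, in either direction, and 19.8% and 21.2% passed at 7 DAF. The interaction of hybrid and season for this copy was 0.35 (95% interval 0.14 to 0.57) and also missed the threshold of 0.01 (q = 0.024), which 4.45% of genes passed.

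In season 2 the A05 copy had 221, 254, 223 and 236 in heated Lumen siliques at 14 DAF, against 141, 171, 132 and 143 in heated Solar siliques. Control siliques at 14 DAF had 178, 288, 244 and 166 in Lumen, against 107, 99, 104 and 98 in Solar. The Lumen control libraries were the most scattered of these groups and the Solar control libraries the closest to each other. At 7 DAF the copy had 174, 190, 197 and 161 in heated Lumen siliques, against 88, 96, 124 and 108 in heated Solar siliques, and 184, 162, 187 and 177 in control Lumen siliques, against 113, 107, 132 and 103 in control Solar siliques.

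The C05 copy in siliques of season 2 had 55, 53, 68 and 46 in heated Lumen plants at 14 DAF, against 139, 143, 108 and 138 in heated Solar plants. Control plants at 14 DAF had 50, 77, 75 and 60 in Lumen, against 147, 138, 106 and 129 in Solar. The highest Lumen library here (77) was below the lowest Solar library (106). At 7 DAF of season 2 the copy had 75, 78, 86 and 61 in heated Lumen siliques, against 125, 140, 145 and 134 in heated Solar siliques, and 87, 62, 74 and 33 in control Lumen siliques, against 159, 136, 167 and 153 in control Solar siliques. The value of 33 was the lowest of the copy in any library. In season 1 at 14 DAF it had 46, 72 and 52 in heated Lumen siliques, against 131, 89 and 101 in heated Solar siliques, and 37, 59 and 67 in control Lumen siliques, against 103, 149 and 100 in control Solar siliques. At 7 DAF of season 1 it had 54, 55 and 60 in heated Lumen siliques, against 134, 130 and 133 in heated Solar siliques, and 60, 50 and 64 in control Lumen siliques, against 136, 117 and 144 in control Solar siliques. Within each time and season the hybrid difference of the C05 copy in siliques passed in 4 of 4 cases, between -1.21 and -1.02 (log2).

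Added together, the copies differed little between the hybrids, and any other locus of the gene is not part of this sum. Their sum averaged 412 ± 117 in Lumen seeds and 389 ± 100 in Solar seeds, and 246 ± 45.7 in Lumen siliques and 248 ± 31.2 in Solar siliques (SD, n = 28 libraries each), and is given as a description without a test. The share of that sum that came from the A05 copy separated the hybrids fully. It was 78.8% ± 3.32 in Lumen seeds (lowest 73.8%, highest 87.3%) and 50.9% ± 3.16 in Solar seeds (44.8% to 58.9%), and it was 74.7% ± 5.20 in Lumen siliques (65.9% to 84.3%) and 47.1% ± 4.75 in Solar siliques (40.2% to 55.0%). The A05 copy exceeded the C05 copy in 28 of 28 Lumen libraries of each tissue, in 18 of 28 Solar seed libraries and in 10 of 28 Solar silique libraries.

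**Figure D2:**
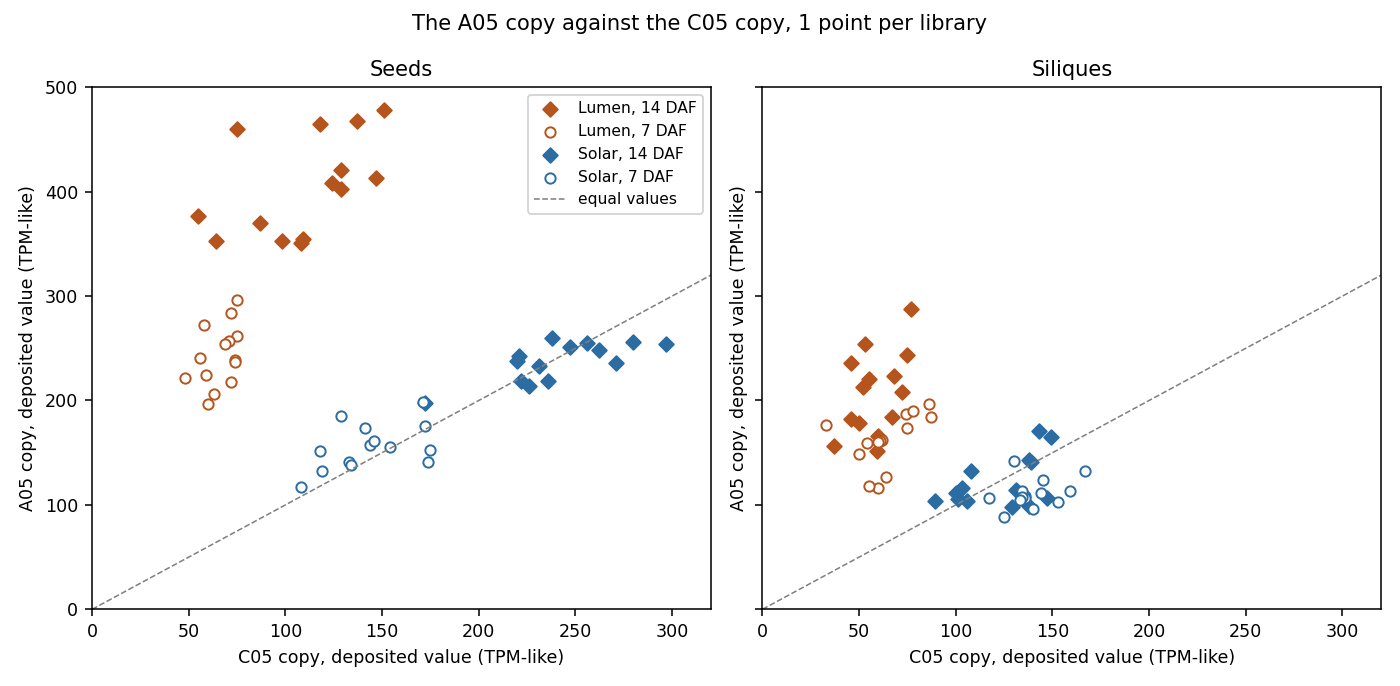
The A05 copy (vertical axis) against the C05 copy (horizontal axis), both as normalized values, with 1 point per library in seeds (left) and siliques (right). Orange stands for Lumen, blue for Solar, diamonds for 14 DAF, open circles for 7 DAF, and the dashed line marks equal values of both copies. All Lumen points lie above the line, and Solar points lie on both sides of it.

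The difference between copies within a library, log2 of the A05 copy minus log2 of the C05 copy, was compared in 9 comparisons by permutation of the labels within the other factors. In seeds it was 1.91 ± 0.31 in Lumen and 0.05 ± 0.18 in Solar (SD, n = 28 libraries each), a difference of 1.86. In siliques it was 1.58 ± 0.41 in Lumen and -0.17 ± 0.27 in Solar, a difference of 1.73. Both permutation tests gave the smallest p they can give (1e-05, adjusted p = 2.25e-05, two-sided). Between the tissues it was 0.98 ± 0.97 in seeds and 0.71 ± 0.95 in siliques (SD, n = 56 libraries each, hybrids pooled), and was higher by 0.28 in seeds once hybrid, treatment, time and season were held (adjusted p = 2.25e-05, permutation test). With season 2 alone the difference between tissues was 0.20 and missed the threshold (adjusted p = 0.011).

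Sampling time asks how expression changed as the seeds grew. In seeds both copies were higher at 14 DAF than at 7 DAF. The A05 copy had 321 ± 92.5 at 14 DAF and 200 ± 51.3 at 7 DAF, and the C05 copy had 175 ± 73.6 at 14 DAF and 105 ± 43.1 at 7 DAF (SD, n = 28 libraries each, hybrids pooled). This was 1.59-fold for A05 (log2 difference 0.67, SE 0.04, 95% interval 0.59 to 0.76, q = 5.31e-17 in limma) and 1.64-fold for C05 (0.71, SE 0.07, 95% interval 0.58 to 0.85, q = 2.22e-12). Of all seed genes tested, 37.0% differed between the times and 20.7% were higher at 14 DAF. The A05 copy had no overlap between times in 8 of 8 combinations of hybrid, treatment and season, as did 1.07% of genes. The C05 copy had none in 6 of 8, as did 3.79% of genes in 6 or more, and both exceptions were heated Lumen seeds, where the 14 DAF libraries went down to 75 in season 2 and 55 in season 1.

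The rise in seeds passed in each hybrid and season, with log2 differences of 0.59 to 0.78 for A05 and 0.60 to 0.87 for C05. Higher values at 14 DAF were found for 14.2% of genes in Lumen seeds of season 2, 5.39% in Lumen of season 1, 9.37% in Solar of season 2 and 8.15% in Solar of season 1. The difference between the copies was 0.96 ± 1.04 at 14 DAF and 0.99 ± 0.92 at 7 DAF, a change of -0.04 that did not pass (adjusted p = 0.64, permutation test). By hybrid it was 1.94 ± 0.40 at 14 DAF and 1.88 ± 0.20 at 7 DAF in Lumen, and -0.016 ± 0.13 at 14 DAF and 0.11 ± 0.21 at 7 DAF in Solar (SD, n = 14 libraries each). The A05 copy was the higher one in 14 of 14 Lumen seed libraries at each time, and in 6 of 14 Solar seed libraries at 14 DAF and 12 of 14 at 7 DAF. The summed value of both copies was 497 ± 59.9 at 14 DAF and 305 ± 35.8 at 7 DAF.

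In siliques the copies parted. The A05 copy had 165 ± 54.2 at 14 DAF and 136 ± 32.8 at 7 DAF, 1.18-fold higher (log2 difference 0.24, SE 0.05, 95% interval 0.13 to 0.34, q = 0.00027 in limma). The C05 copy had 90.6 ± 36.8 at 14 DAF and 102 ± 40.7 at 7 DAF, and its difference of -0.16 (SE 0.07, 95% interval -0.31 to -0.01) did not pass (q = 0.072). Of all silique genes tested, 34.3% differed between the times, 17.2% with higher and 17.1% with lower values at 14 DAF. For the A05 copy the 14 DAF libraries lay wholly above the 7 DAF libraries in 4 of 8 combinations, 3 of them in Lumen, as did 4.72% of genes in 4 or more. Within hybrid and season the A05 difference passed in 1 of 4 cases, Lumen of season 2 (0.32, q = 0.0085), with 0.40 in Lumen of season 1 (q = 0.013), 0.17 in Solar of season 2 (q = 0.18) and 0.05 in Solar of season 1 (q = 0.84). In the same order 12.6%, 2.98%, 10.3% and 2.93% of genes passed with higher values at 14 DAF. The interaction of hybrid and time was 0.25 (95% interval 0.04 to 0.46) and did not pass (q = 0.14), as 5.07% of genes did. Without the libraries numbered replicate 2 the A05 difference in siliques was 0.17 and lost its call (q = 0.025).

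The difference between copies in siliques was 0.91 ± 0.98 at 14 DAF and 0.51 ± 0.90 at 7 DAF, higher by 0.40 at 14 DAF with the other factors held (adjusted p = 2.25e-05, permutation test). As a share, the A05 copy made up 77.9% ± 3.65 of the sum at 14 DAF and 71.6% ± 4.60 at 7 DAF in Lumen siliques, and 49.8% ± 4.58 at 14 DAF and 44.3% ± 3.12 at 7 DAF in Solar siliques (SD, n = 14 libraries each). It exceeded the C05 copy in 9 of 14 Solar silique libraries at 14 DAF and in 1 of 14 at 7 DAF.

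Heat is the treatment the study was built on, and neither copy passed its test in either tissue. In seeds the A05 copy had 269 ± 98.6 under heat and 252 ± 94.9 in controls (log2 difference 0.10, SE 0.04, 95% interval 0.01 to 0.18, q = 0.24 in limma), and the C05 copy had 145.0 ± 75.2 under heat and 135.5 ± 64.3 in controls (0.06, SE 0.07, interval -0.08 to 0.19, q = 0.73). In siliques the A05 copy had 157 ± 47.3 under heat and 145 ± 46.1 in controls (0.11, SE 0.05, interval -0.00 to 0.21, q = 0.22), and the C05 copy had 94.7 ± 36.7 under heat and 97.8 ± 41.5 in controls (-0.02, SE 0.07, interval -0.17 to 0.13, q = 0.92). Each mean is over 28 libraries with both hybrids, times and seasons. Few genes passed this test, 1.64% in seeds and 5.09% in siliques. Before adjustment in limma, p was 0.035 for the A05 copy in seeds and over 0.05 in the other 3 cases. For the A05 copy the upper ends of these intervals were 0.18 in seeds and 0.21 in siliques (log2). They were below its hybrid differences over the same libraries, 0.70 in seeds and 0.62 in siliques. Within 1 hybrid and time the heat intervals were wider, with an upper end of 0.42 for this copy in Lumen siliques at 14 DAF.

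Within each hybrid and time 0 of 16 heat differences passed in limma and 0 had an unadjusted p under 0.05, with values of 0.03 to 0.14 (A05) and -0.11 to 0.13 (C05) in seeds and of -0.00 to 0.21 (A05) and -0.08 to 0.13 (C05) in siliques. Almost no gene passed these tests, 0.0412% and 0.127% in Lumen seeds at 14 and 7 DAF, 0.186% and 0.0319% in Solar seeds, 0.486% and 0.336% in Lumen siliques and 0.0968% and 0.128% in Solar siliques. Heated libraries lay wholly above control libraries in 2 of 8 combinations for the A05 copy in seeds, a count that 2.99% of genes reached, and in 1 of 8 for the C05 copy, which 18.3% of genes reached. Those for A05 were Lumen seeds at 7 DAF of season 1 and Solar seeds at 14 DAF of season 2, and that for C05 was Solar seeds at 7 DAF of season 2, with 174, 175, 171 and 172 under heat against 133, 144, 146 and 134 in controls. In siliques the A05 copy was wholly higher under heat in 1 of 8 combinations, Solar at 14 DAF of season 2, with 141, 171, 132 and 143 under heat against 107, 99, 104 and 98 in controls, and 19.5% of genes had 1 or more such combinations. The difference between copies changed with heat by 0.04 in seeds (adjusted p = 0.64) and by 0.13 in siliques (adjusted p = 0.13, permutation tests).

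**Figure D3:**
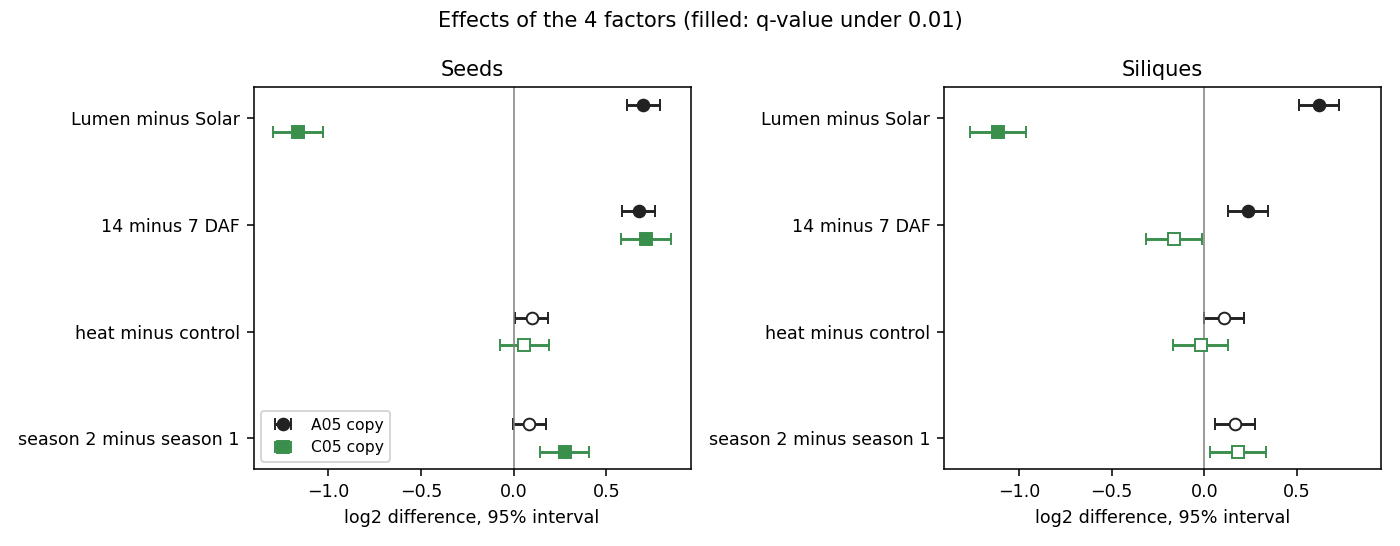
Log2 differences of the A05 copy (black circles) and the C05 copy (green squares) for the 4 factors in seeds (left) and siliques (right), with 95% intervals of the limma fit over 56 libraries each. Filled symbols have a q-value under 0.01. The hybrid difference is positive for A05 and negative for C05 in both tissues, and the heat differences lie near 0.

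Season was compared because the field trial was run in 2 years, with a different layout in each. In seeds the C05 copy was higher in season 2, with 150 ± 69.8 in season 2 and 128 ± 68.5 in season 1 (SD, n = 32 and 24 libraries), a log2 difference of 0.27 (SE 0.07, 95% interval 0.14 to 0.41, q = 0.00091 in limma), while 27.3% of seed genes passed and 12.2% were higher in season 2. All season 2 libraries lay above all season 1 libraries in 5 of 8 combinations, 3 of them in Lumen, as did 1.87% of genes in 5 or more. The A05 copy in seeds had 268 ± 104 in season 2 and 250 ± 86.5 in season 1 and did not pass (0.08, 95% interval -0.01 to 0.17, q = 0.13). The C05 call rested on single replicate numbers, since the difference was 0.19 (q = 0.025) without the libraries numbered replicate 1 and 0.29 (q = 0.012) without those numbered replicate 3. Within hybrid and time 0 of 4 season differences of the C05 copy in seeds passed in limma and 3 had an unadjusted p under 0.05, with 0.43 in Lumen at 14 DAF (q = 0.014), 0.31 in Lumen at 7 DAF (q = 0.11), 0.076 in Solar at 14 DAF (q = 0.82) and 0.28 in Solar at 7 DAF (q = 0.14). In the same order 14.3%, 6.15%, 3.65% and 10.1% of genes passed in either direction. Replicate 1 includes the low Lumen values of 55 and 64 at 14 DAF named above.

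The difference between copies in seeds was 0.90 ± 0.95 in season 2 and 1.09 ± 1.00 in season 1, lower by 0.19 in season 2 with the other factors held (adjusted p = 0.0069, permutation test). It was -0.18 and lost its call without the 2 seed libraries that stood apart (adjusted p = 0.013), and it was -0.089 without replicate 1 (adjusted p = 0.28) and -0.21 without replicate 2 (adjusted p = 0.025). In siliques neither copy passed, with 160 ± 53.1 in season 2 and 139 ± 33.7 in season 1 for A05 (0.16, 95% interval 0.06 to 0.27, q = 0.018) and 101 ± 40.1 in season 2 and 89.3 ± 36.9 in season 1 for C05 (0.18, interval 0.03 to 0.33, q = 0.064). Of silique genes 15.2% passed this test. The unadjusted p was 0.0032 for A05 and 0.018 for C05.

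Between tissues both copies were higher in seeds than in siliques. The log2 difference was 0.76 for A05 (SE 0.03, 95% interval 0.70 to 0.83, q = 1.82e-36 in limma) and 0.48 for C05 (SE 0.05, 95% interval 0.38 to 0.58, q = 6.54e-15) in the joint fit of both tissues. Tissue differences were nearly general, with 83.0% of the 47925 genes tested in both tissues past the threshold and 53.2% higher in seeds. All genes together were shifted, with a median difference of 0.28, and after each library was rescaled by its median ratio to the geometric mean library the differences were 0.47 for A05 and 0.19 for C05, both still past the threshold. In these bulk samples fewer cells of a type and less RNA per cell cannot be told apart.

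The tissue difference grew with time for both copies. At 14 DAF seeds exceeded siliques by 0.98 (log2, A05) and 0.92 (C05), where 49.4% of genes were higher in seeds. At 7 DAF, with 47.4% of genes higher in seeds, they did so by 0.55 for A05, whereas the C05 copy differed by 0.04 (95% interval -0.10 to 0.18, q = 0.56 in limma). Rescaled, the differences at 14 DAF were 0.68 (A05) and 0.62 (C05), and that of A05 at 7 DAF was 0.26 (q = 1.05e-06), with 0.17 in Solar at 7 DAF, which lost the call (q = 0.022, against 0.47 without rescaling). Rescaled, the C05 copy at 7 DAF was lower in seeds by 0.25 on the log2 scale (-0.25, q = 0.0012), so its direction at that time depends on the scaling. The change of the tissue difference with time was 0.44 for A05 (95% interval 0.30 to 0.57, q = 1.53e-07) and 0.88 for C05 (interval 0.68 to 1.07, q = 1.28e-11), against 19.4% of genes that passed this test and 10.9% that passed in this direction. It was 0.43 (A05) and 0.86 (C05) after rescaling. Changes of the tissue difference with hybrid, heat or season did not pass for either copy, as they did for 10.3%, 1.59% and 4.70% of genes.

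Interactions among the 4 factors within a tissue did not pass for either copy. Of 11 interactions each in limma, 0 passed, and an unadjusted p under 0.05 was reached by 1 for A05 and 1 for C05 in seeds, and by 4 for A05 and 0 for C05 in siliques. Among all genes the share past the threshold ranged from 0% (hybrid and heat, in both tissues) to 5.82% (hybrid and season) in seeds and to 5.07% (hybrid and time) in siliques. The smallest q-value was the 0.024 of hybrid and season for A05 in siliques.

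The neighbours of each copy were examined because the hybrids differed in opposite directions on A05 and C05. Identifiers are numbered along each chromosome, and among those read here BnaA05g26900D ranked 2690 of 3750 on A05 and BnaC05g40970D ranked 4097 of 5226 on C05. No coordinates were used, so these are ranks of identifiers and not distances. Of the 40 tested genes nearest to the A05 copy, 20 on each side, 26 were higher and 1 was lower in Lumen seeds, with a median log2 difference of 0.49. In siliques 29 were higher and 2 were lower, with a median of 0.50. Along all of chromosome A05, 28.3% of tested genes were higher in Lumen seeds and 30.1% in Lumen siliques.

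Around the C05 copy the neighbours went the other way almost without exception. In seeds 38 of 40 were lower in Lumen and 0 were higher, with a median log2 difference of -0.97, and in siliques 37 of 40 were lower and 0 were higher, with a median of -0.86. Along all of chromosome C05, 26.7% of tested genes were lower in Lumen seeds and 24.8% in Lumen siliques. The median hybrid difference of all tested genes was -0.04 in seeds and -0.01 in siliques. With 100 genes on each side, 65.0% were higher in seeds and 70.5% in siliques around A05, and 89.0% were lower in seeds and 87.0% in siliques around C05.

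The copies did not stand out among their neighbours in the size of the hybrid difference. Around A05, 13 of 40 neighbours in seeds and 16 of 40 in siliques had a larger difference than the copy. Around C05, 8 of 40 did in each tissue. These counts go by size alone, in either direction. The neighbours of the A05 copy ranged widely, between -0.37 and 5.56 in seeds and between -1.25 and 4.53 in siliques, whereas those of the C05 copy ranged between -1.59 and 0.36 in seeds and between -2.02 and 0.22 in siliques.

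**Figure D4:**
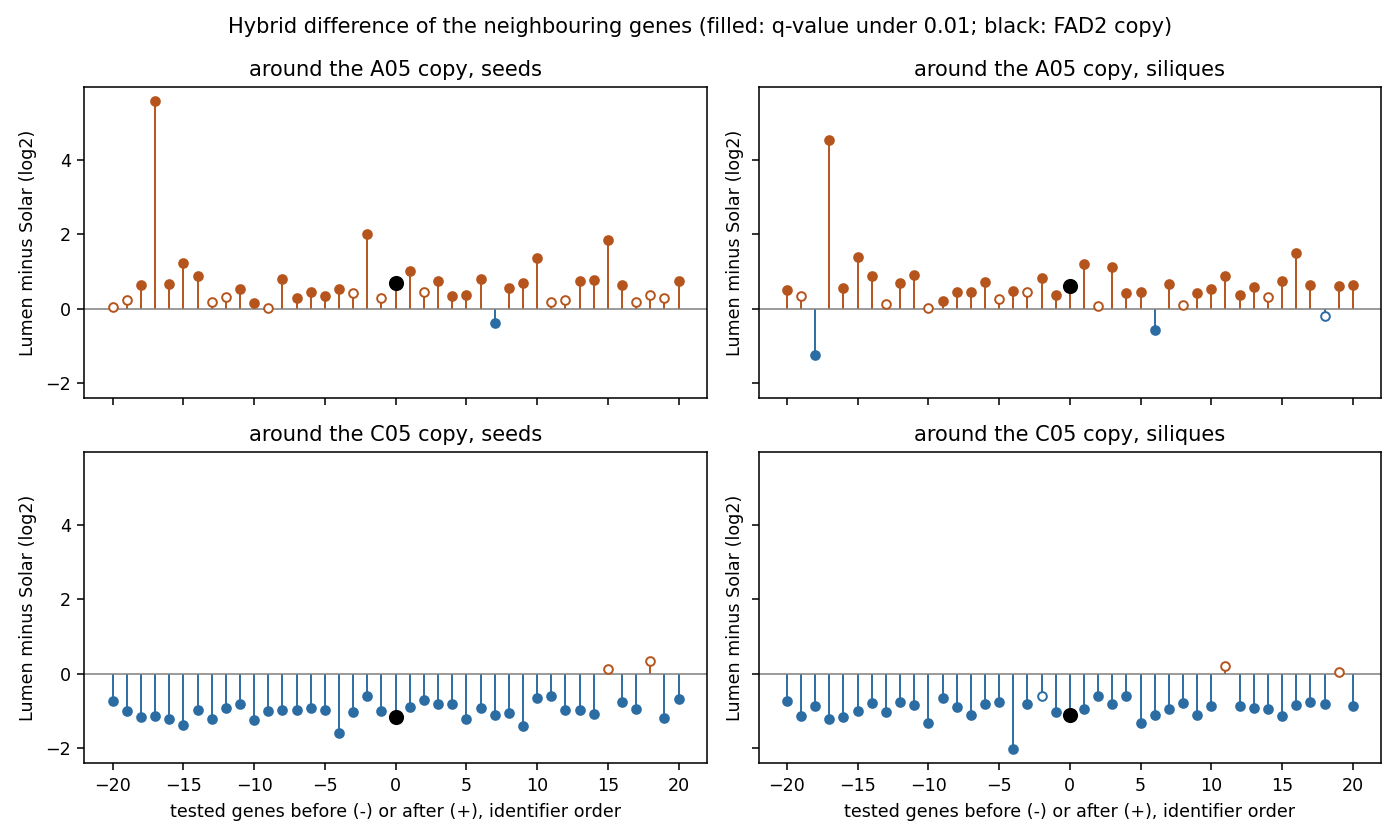
Log2 difference of Lumen minus Solar (vertical axis) for the 20 tested genes before and after each copy in identifier order (horizontal axis), around A05 (top) and C05 (bottom), in seeds (left) and siliques (right). Filled points have a q-value under 0.01 and the black point is the FAD2 copy. Most neighbours of the A05 copy lie above 0, and nearly all neighbours of the C05 copy lie below 0.

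Genes whose pattern was most like that of a copy were found by Pearson's r of log2 values over the 56 libraries of a tissue, among genes with a mean of at least 20. These correlations are descriptions, since the libraries share hybrid, time and season. In seeds the A05 copy was most like BnaA05g07530D (r = 0.95). At 14 DAF this gene averaged 282.0 ± 32.4 for Lumen, against 174 ± 14.5 for Solar, and at 7 DAF it averaged 192 ± 33.9 for Lumen, against 117.0 ± 18.1 for Solar (SD, n = 14 libraries each). The C05 copy in seeds was most like BnaC09g08240D (r = 0.92). Its mean at 14 DAF was 27.3 ± 4.38 for Lumen, against 45.3 ± 5.40 for Solar, and its mean at 7 DAF was 22.3 ± 3.67 for Lumen, against 33.4 ± 3.05 for Solar. Both genes repeat the hybrid and time order of the copy they resemble, which their choice by r over these same libraries favours.

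In siliques the A05 copy was most like BnaA06g23560D (r = 0.86), which had 75.7 ± 20.6 at 14 DAF for Lumen, against 10.7 ± 2.79 for Solar, and 37.7 ± 20.1 at 7 DAF for Lumen, against 6.57 ± 1.87 for Solar. The C05 copy was most like BnaC05g50130D (r = 0.92). This gene averaged 5.79 at 14 DAF and 7.07 at 7 DAF in Lumen, against 55.2 at 14 DAF and 62.8 at 7 DAF in Solar, where its lowest libraries had 35 and 42. The hybrid difference of both these genes was much wider than that of the FAD2 copies. Genes with r over 0.9 numbered 9 (A05) and 7 (C05) in seeds and 0 (A05) and 6 (C05) in siliques, the named ones included.

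The copies themselves were not alike across libraries. Between them r was -0.17 in seeds and -0.62 in siliques, and by likeness to the A05 copy the C05 copy ranked 6007 of 9912 genes in seeds and 9152 of 9540 in siliques. Once the mean of each condition was taken out, so that only differences between replicate libraries were left, r was 0.30 in seeds and 0.41 in siliques. On that scale the C05 copy ranked 1426 of 9912 genes in seeds and 193 of 9540 in siliques by likeness to the A05 copy. The residuals share the scaling of each library.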

How the data were processed

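The authors sequenced stranded total RNA, pseudoaligned reads to the annotated transcripts of Brassica napus with kallisto 0.46 (per the labels) and analysed them in Sleuth. The deposited values are whole numbers, treated as a score: the study's methods name TPM, a measure per transcript length, as the output of kallisto, and how the whole numbers were made from it is not given in the sources used here, and 0 value columns were left unused. Reads per gene cannot be recovered from them, so precision rests on the spread between libraries, and p-values assume independent libraries.

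Groups came from the sample labels. For each tissue, log2(value + 0.5) was fitted in limma 3.58.1 (R 4.3.3) with the 16 conditions, contrasts for hybrid, heat, time, season and their interactions, a mean-variance trend and Benjamini-Hochberg adjustment (q-value) over all genes kept by a filter (values of 1 or more in 47% or more of the libraries), which both members passed. Fold changes are on the log2(value + 0.5) scale. Tissues were compared in a joint fit. The difference between copies was tested with 100000 permutations, two-sided, adjusted over 9 comparisons, with a threshold of 0.01. Ratios and percentages were computed here from the deposited score. Scripts were tested on simulated data.

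Beside both members, the text names the gene most alike per copy and tissue. Of 101040 identifiers, 3347 matched a symbol in the RefSeq table, none of them a member, so lists of other lipid genes were not analysed here. The members and lists were chosen with earlier results of these data known. Fits were repeated with median-ratio rescaling, main effects only, a mean of at least 20 or no filter, a pseudocount of 5, a replicate block, a q-value of 0.05, each season alone and leaving out each replicate or the 2 seed libraries that stood apart. The neighbour windows were widened, and a block of seed and silique pairs was added, after seeing the data.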

Additional observations from a re-analysis of the deposited data

Results flagged for a closer look

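The C05 copy in heated Solar siliques at 14 DAF of season 2 had 1 library far from the others, with 108 in replicate 3 against 138, 139 and 143. The gap to the nearest library was 0.857 of the range of the group, above the critical value for 4 samples. It was the 1 such case among 32 checks, in which each group of 4 libraries was taken once for each copy. The critical value is set so that chance alone flags about 1 check in 20.

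The tissue difference changed between the sampling times for both copies. The seed minus silique difference was larger at 14 DAF than at 7 DAF by 0.44 on the log2 scale for the A05 copy (q = 1.53e-07) and by 0.88 for the C05 copy (q = 1.28e-11, both in limma, all libraries).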

How the results depend on the processing

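The 27 main comparisons were repeated under 309 alternatives. The side of the threshold was kept in 300, the call was lost in 8 and gained in 1. In 4 comparisons that missed the threshold the sign changed under 5 alternatives, with ranges of -0.040 to 0.011 for heat and the C05 copy in siliques, and, for the difference between copies, of -0.011 to 0.093 (heat, seeds), -0.092 to 0.0054 (time, seeds) and -0.051 to 0.056 (season, siliques). The hybrid calls of both copies in both tissues, and the time calls of both copies in seeds, were kept under every alternative run. For 136 single contrasts and neighbour counts, 1402 alternatives kept the side of the threshold in 1383, lost the call in 10, gained it in 7 and turned the direction in 2.

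Leaving out each replicate number in turn gave 0.19 to 0.31 for the season difference of the C05 copy in seeds, 0.17 to 0.27 for the time difference of the A05 copy in siliques, and -0.25 to -0.089 for the season difference between copies in seeds. The A05 time difference in siliques was 0.22 (q = 0.064) with season 1 alone. The season difference between copies in seeds was -0.18 without the 2 seed libraries that stood apart, and the tissue difference between copies was 0.20 with season 2 alone. At a q-value of 0.05 the A05 season difference of 0.16 in siliques would pass. With median-ratio rescaling the tissue difference of the C05 copy turned to -0.25 at 7 DAF and to -0.28 in Solar at 7 DAF (q = 0.00999). The rescaling removes the shift between tissues, and the causes of the other changes were not tested.

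Within a tissue 56 of 196 same-numbered pairs in seeds and 70 of 196 in siliques correlated above 0.1. These pairs came from all conditions of a season, most with different hybrids or treatments. The counts cannot decide whether libraries of both times came from the same plots, so such pairing was not tested. All tests treat these libraries as independent, so those of hybrid and heat count both times of a plot as separate libraries. No term for the main plots of season 1 was fitted. With the replicate block the C05 season difference in seeds was 0.27 (q = 0.00073), and the block changed no call of either copy. Between seed and silique libraries of 1 condition, 41 of 56 same-numbered pairs correlated above 0.1 (median r = 0.19, against -0.075 for different numbers), short of every pair. A replicate block of these pairs, added after seeing the data, gave tissue differences of 0.76 (A05) and 0.48 (C05) and changed no tissue call. Reads per gene are unknown, so no counting error was attached to a value.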
